A study of Homo sapiens with 9 samples.

Results

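Genes were selected whose counts in MDA-MB-231 cells carrying the potassium channel Kir2.1 lay apart from those in all other libraries of the experiment. Of 60715 genes in the count table, 11624 were protein-coding, had a mean of at least 2 CPM (counts per 1000000 counts of the library) in at least 1 group and were not among 3 genes that the rule sets aside, KCNJ2 (the transgene) being 1 of these. A gene was taken as higher where its lowest Kir2.1 library was at least 2 times its highest other library, and as lower where its lowest other library was at least 2 times its highest Kir2.1 library. The rule gave 81 genes: 47 higher, 30 lower, and 4 (CD70, LRMDA, PADI4 and CSTA) that met it only because both Kir2.1 and at least 1 library labelled Kv1.5 were at 0. The 4 ties were not set apart from the libraries labelled Kv1.5 and were kept out of the counts below, which leaves 77 genes. The genes were thus chosen by their CPM in Kir2.1 against all other libraries, and the distance of Kir2.1 from the other libraries is given as a description without a test. The same rule gave 158 higher and 253 lower genes for RFP, and 141 and 158 for the Kv1.5 label. That label has 2 libraries where the other groups have 3, so its counts are not on equal terms with theirs.

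MDA-MB-231 is an established human line from a triple negative breast cancer, a tumour class without oestrogen receptor, progesterone receptor or amplified HER2. The cells were infected with lentivirus and sorted by fluorescence, and all groups share this handling. They carried RFP (red fluorescent protein, the control, 3 libraries), Kir2.1 with the substitution Y242F (tyrosine 242 to phenylalanine) joined to EGFP (3 libraries), or a construct labelled Kv1.5-T2A-his-EGFP (2 libraries, replicates 2 and 3). Replicates are separate biological samples per the labels, but no source used here says whether each came from its own infection or how many cells founded a line. The p-values therefore measure the spread between these samples. The fluorescent protein differed between RFP and both channel groups and cannot be told apart from the channel in a comparison with RFP.

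Library totals ran from 30970235 to 42753422 counts, and mitochondrial genes took 1.95% to 3.58% of them. In the Kir2.1 libraries KCNJ2 reached 842, 1410.0 and 1216 CPM, and elsewhere at most 0.0987 CPM. The gene for Kv1.5, KCNA5, was at 0 counts in both of the libraries that carry this label. The counts thus do not bear the label out, and these libraries are named by it throughout, with every direction given for them resting on the label. The mesenchymal marker VIM lay between 1640.0 and 4000.0 CPM in all libraries. Other markers expected in this line were CD44 (561 to 1090 CPM), AXL (572 to 1090), MSN (461 to 1330) and CAV1. CAV1 was at 473 to 565 CPM in RFP, 464 to 648 in Kir2.1 and 110 to 214 for the Kv1.5 label. Of markers expected to be low or absent, CDH1 (at most 0.187 CPM), ESR1 (at most 0.0597) and PGR (at most 0.0762) were near 0. ERBB2 was between 47.2 and 78.2 CPM. EPCAM was at 12.4 to 18.0 CPM in RFP, 7.93 to 11.1 in Kir2.1 and 14.8 to 25.5 for the Kv1.5 label. Of 5 markers of the virus-packaging line HEK293T, LIN28B and PAX2 were at 0 in every library, and the 5 summed to 1.45 to 3.07 CPM in RFP, 0.420 to 0.771 in Kir2.1 and 0.543 to 0.991 in the libraries labelled Kv1.5. Of 6 markers of MDA-MB-468, the study's other line, KRT6B was at 0 in every library and EGFR made up most of the sum (329 to 521 CPM in RFP, 272 to 417 in Kir2.1 and 473 to 615 for the Kv1.5 label). Of 5 leukocyte markers CD3E was at 0 in every library, while CD14 and LYZ brought the sum from 0.865 to 1.25 CPM in RFP to 4.84 to 7.02 in Kir2.1 and 4.44 to 5.87 in the libraries labelled Kv1.5. The part of these markers in the results below was not tested.

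Kir2.1 is an inward rectifier, a potassium channel that passes current best near and below the potassium equilibrium potential and so holds the membrane at negative potentials. Membrane potential sets the driving force for calcium entry and for many transporters. In epithelial and tumour cells it is known to affect proliferation, migration and secretion. Kv1.5 is a voltage-gated potassium channel that opens on depolarisation.

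Among the 47 higher genes the lowest Kir2.1 library stood 2.01 to 9.68 times above the highest other library (median 2.74), with 19 genes at 3 times or more and 20 under 2.5 times. For the 30 lower genes the distance was 2.01 to 21.3 times (median 2.79), with 13 at 3 times or more and 14 under 2.5. Genes just inside the threshold were FLVCR2 (2.005) and ADAMTS15 (2.021) on the higher side and PSAT1 (2.006) and LY6K (2.107) on the lower side. Just outside were LBH (1.998) and FUT8 (1.984) on the higher side and CASP1 (1.964) and ASS1 (1.929) on the lower. Most of the genes are of low abundance: the higher genes had a median of 9.19 CPM in Kir2.1 against 1.13 in RFP and 1.97 for the Kv1.5 label, and the lower genes 0.924 CPM in Kir2.1 against 10.9 and 6.30. On their low side the higher genes rested on a median of 298 counts summed over 5 libraries (the lowest, RNF144A, on 25), and the lower genes on 94 counts over 3 libraries (the lowest, ANO2, on 4). The heatmap of these genes shows the order.

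**Figure D1:**
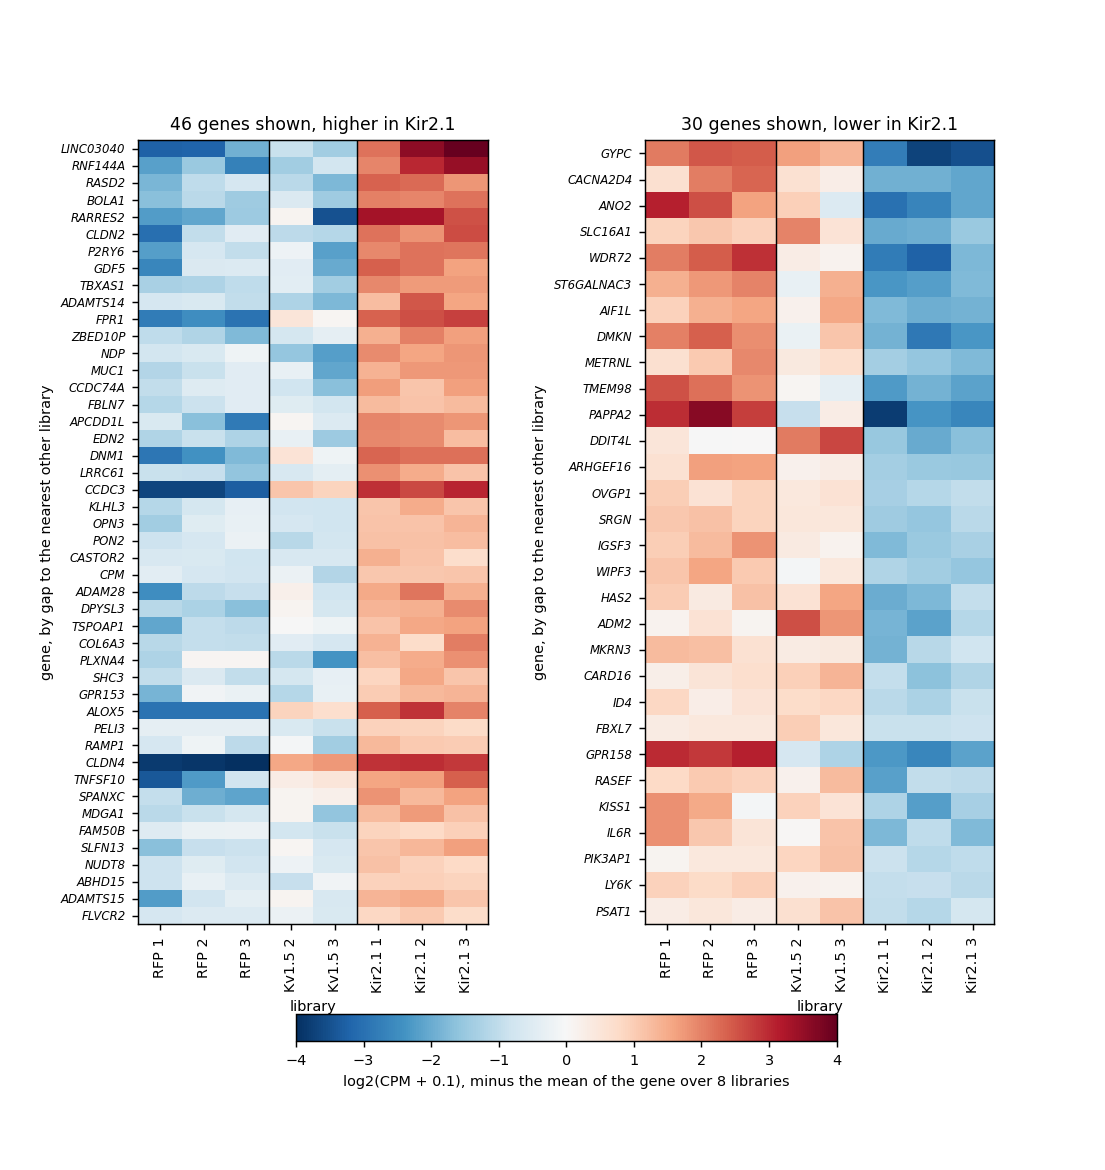
Levels of 76 of the 77 genes (rows, ordered by their distance from the other libraries within the higher and the lower genes) in the 8 libraries (columns: RFP, Kv1.5 label, Kir2.1), as log2(CPM + 0.1) minus the gene's mean over the libraries, red above and blue below it, with colours ending at -4 and 4. The Kir2.1 columns stand out in both blocks because the rule chose them so, while the columns labelled Kv1.5 differ from gene to gene.

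The rule set Kir2.1 against RFP and the libraries labelled Kv1.5 together and so bounded the level of both, though it did not compare them with each other. The differences of the Kv1.5 label from RFP given here, with their calls and adjusted p from edgeR's fit across all genes, therefore describe the genes and are no test free of the selection. Of the 47 higher genes, all tested, 12 rose and 1 fell (27.7% called, median log2 difference 0.45), where 33.7% of all tested genes were called (18.1% higher and 15.6% lower). Of the 30 lower genes 11 fell and 3 rose (46.7% called, median -0.59). Among all tested protein-coding genes past the level filter 35.5% were called, 18.7% higher and 16.7% lower (median 0.0012). By placement, both Kv1.5 libraries lay above all RFP libraries for 18 higher genes (38.3%, against 25.3% of all such genes), below for 4 (8.51%, against 30.9%) and over the RFP range for 25. For the lower genes 15 lay below (50.0%), 6 above (20.0%) and 9 over the RFP range. Being set apart in Kir2.1 therefore did not mean that a gene changed in Kir2.1 only: 33 of the 77 had the Kv1.5 label on the same side of RFP without overlap. The rule rests heavily on these 2 libraries, since Kir2.1 against RFP alone gave 394 higher and 223 lower genes. In the authors' deposited tables, all 47 and 30 genes are listed for Kir2.1 against RFP, a contrast the rule used, where 8.01% of all genes past the level filter are listed. For Kv1.5 against RFP they list 9 higher genes (19.1%) and 7 lower genes (23.3%), near the 16.0% of all such genes.

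The genes are grouped below by roles that were assigned after their values were seen, and where a fixed list covers a role its count over all tested members is given. Beside such counts stand the shares of all 16687 tested genes: 12.2% rose and 8.26% fell in Kir2.1 against RFP, and 18.1% rose and 15.6% fell for the Kv1.5 label. The counts of a list include the genes that the rule chose from it, so those in Kir2.1 against RFP are not free of the selection. Of the lists with such genes, only that of amino acids is also counted without its gene.

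Proteins of epithelial cell borders were among the higher genes. Values are given below in the order RFP replicates 1 to 3, Kir2.1 replicates 1 to 3 and Kv1.5 label replicates 2 and 3. CLDN4 (chromosome 7, 73799542 to 73832693, GRCh38), a claudin that seals tight junctions, stood at 1.17, 1.09 and 0.865 CPM in RFP, 132, 138 and 126 CPM in Kir2.1 and 51.6 and 58.7 CPM for the Kv1.5 label. It was the most abundant higher gene in Kir2.1 and took 3 separate levels with no overlap between groups. Between RFP and the Kv1.5 label it rose by a log2 value of 5.78 (SE 0.23, adjusted p = 1.51e-08, edgeR's quasi-likelihood test with Benjamini-Hochberg adjustment). CLDN2 (chromosome X, 106900164 to 106930861), a claudin that forms pores for cations and water, was at 0.0468, 0.507 and 0.776 CPM in RFP, 5.33, 4.07 and 7.17 CPM in Kir2.1 and 0.483 and 0.444 CPM for the Kv1.5 label. MUC1, a transmembrane mucin of apical surfaces, was at 0.678, 0.854 and 1.19, then 4.52, 5.75 and 5.77, then 1.35 and 0.321 CPM. For CLDN2 and MUC1 the libraries labelled Kv1.5 lay over the RFP range and the log2 differences were 0.18 (SE 0.68) and -0.06 (SE 0.49). These 3 were the members from a list of 57 epithelial junction and keratin genes, of which 26 passed the level filter. Of its 34 genes tested, these 3 included, 10 rose and 7 fell in Kir2.1 against RFP (median log2 difference -0.16), where 12.2% of all tested genes rose and 8.26% fell. The junction scaffold TJP1 and the junction protein OCLN, textbook partners of claudins, were at 58.7 to 108 and 3.07 to 7.94 CPM in Kir2.1 against 112 to 126 and 7.10 to 8.70 CPM in RFP, and neither passed the test (adjusted p = 0.16 and 0.359).

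Promoter sequences of both claudins, and of TBXAS1 described next, are shown because they were the only higher genes with a match to the AP-1 motif among those matched to RefSeq. Each line gives the 250 bases before the RefSeq start site on GRCh38.p14, 5′ to 3′ on the gene's strand (all 3 on the plus strand), with the 7 bases of each match to TGANTCA in capitals. The windows are chr7:73830746-73830995, chrX:106899914-106900163 and chr7:139829014-139829263. Those of CLDN4 and TBXAS1 lie inside the GENCODE 29 gene, downstream of its first annotated start.
CLDN4: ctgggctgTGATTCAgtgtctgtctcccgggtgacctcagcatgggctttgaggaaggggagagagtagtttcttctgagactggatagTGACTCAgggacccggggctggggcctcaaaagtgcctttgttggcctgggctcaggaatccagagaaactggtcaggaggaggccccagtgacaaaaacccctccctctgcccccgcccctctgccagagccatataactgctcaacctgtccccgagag
CLDN2: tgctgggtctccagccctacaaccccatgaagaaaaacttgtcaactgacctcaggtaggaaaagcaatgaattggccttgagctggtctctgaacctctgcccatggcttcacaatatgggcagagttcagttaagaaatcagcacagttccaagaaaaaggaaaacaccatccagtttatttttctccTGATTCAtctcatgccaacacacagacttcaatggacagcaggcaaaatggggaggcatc
TBXAS1: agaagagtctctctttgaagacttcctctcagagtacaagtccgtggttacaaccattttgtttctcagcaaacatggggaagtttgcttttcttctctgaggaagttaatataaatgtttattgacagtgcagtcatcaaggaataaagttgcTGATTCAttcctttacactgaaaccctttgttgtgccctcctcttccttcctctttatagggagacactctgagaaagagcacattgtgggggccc
CLDN4 held 2 matches, beginning 242 and 161 bases before the start. CLDN2 held 1, beginning 60 bases before it, and TBXAS1 1, beginning 96 bases before it. The motif, which reads the same on both strands, was in 3 of 33 promoters of higher genes (9.09%), in 0 of 20 of lower genes and in 364 of 9546 promoters of all genes that passed the level filter (3.81%). A match describes letters only, and binding was not measured.

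A pair of enzymes that make lipid mediators was also higher. Of the list of 63 genes of lipid and sterol metabolism, 1 (ALOX5) of the 50 past the level filter met the rule. Of 57 tested 6 rose and 10 fell in Kir2.1 (median log2 difference 0.05), where 12.2% of all tested genes rose and 8.26% fell. TBXAS1, thromboxane A synthase, stood at 2.97, 3.15 and 3.67 CPM in RFP, 28.6, 24.5 and 24.7 CPM in Kir2.1 and 5.62 and 2.81 CPM for the Kv1.5 label, where the 2 libraries fell on both sides of the RFP range. ALOX5, the 5-lipoxygenase that starts leukotriene synthesis, had 0 counts in all 3 RFP libraries, 3.94, 5.56 and 2.91 CPM in Kir2.1 and 1.32 and 1.14 CPM for the Kv1.5 label. Against a floor of 3 counts over the RFP group it was at least 158-fold higher in Kir2.1 and at least 46.5-fold higher for the Kv1.5 label, a bound that covers counting error only. The latter difference passed the test (adjusted p = 4.86e-05, edgeR). ALOX5AP, the protein that presents substrate to ALOX5, went the other way in Kir2.1, at 0.889, 0.774 and 3.76 CPM in RFP and 0.678, 0.550 and 0.40 CPM in Kir2.1 (log2 difference -1.71, SE 0.56, adjusted p = 0.0488). RFP replicate 3 was the high library here: without it the value was -0.65 and the call was lost, as it was under 9 of 14 alternatives. PTGS2, the cyclooxygenase that makes the prostaglandin precursor of thromboxane, was at 15.2, 15.2 and 51.1 CPM in RFP, 4.59, 10.1 and 8.14 CPM in Kir2.1 and 126 and 163 CPM for the Kv1.5 label. It fell by 1.83 (SE 0.48, adjusted p = 0.0238) in Kir2.1 and rose by 2.5 (SE 0.51, adjusted p = 0.00461) for the Kv1.5 label, both against the same RFP libraries. Without RFP replicate 3 these values were -1.03 and 3.30, and the fall lost its call without any 1 of the Kir2.1 libraries. PON2, a lactonase of intracellular membranes, was at 3.74, 4.21 and 5.76 CPM in RFP, 15.2, 15.4 and 16.2 CPM in Kir2.1 and 3.05 and 3.97 CPM for the Kv1.5 label.

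**Figure D2:**
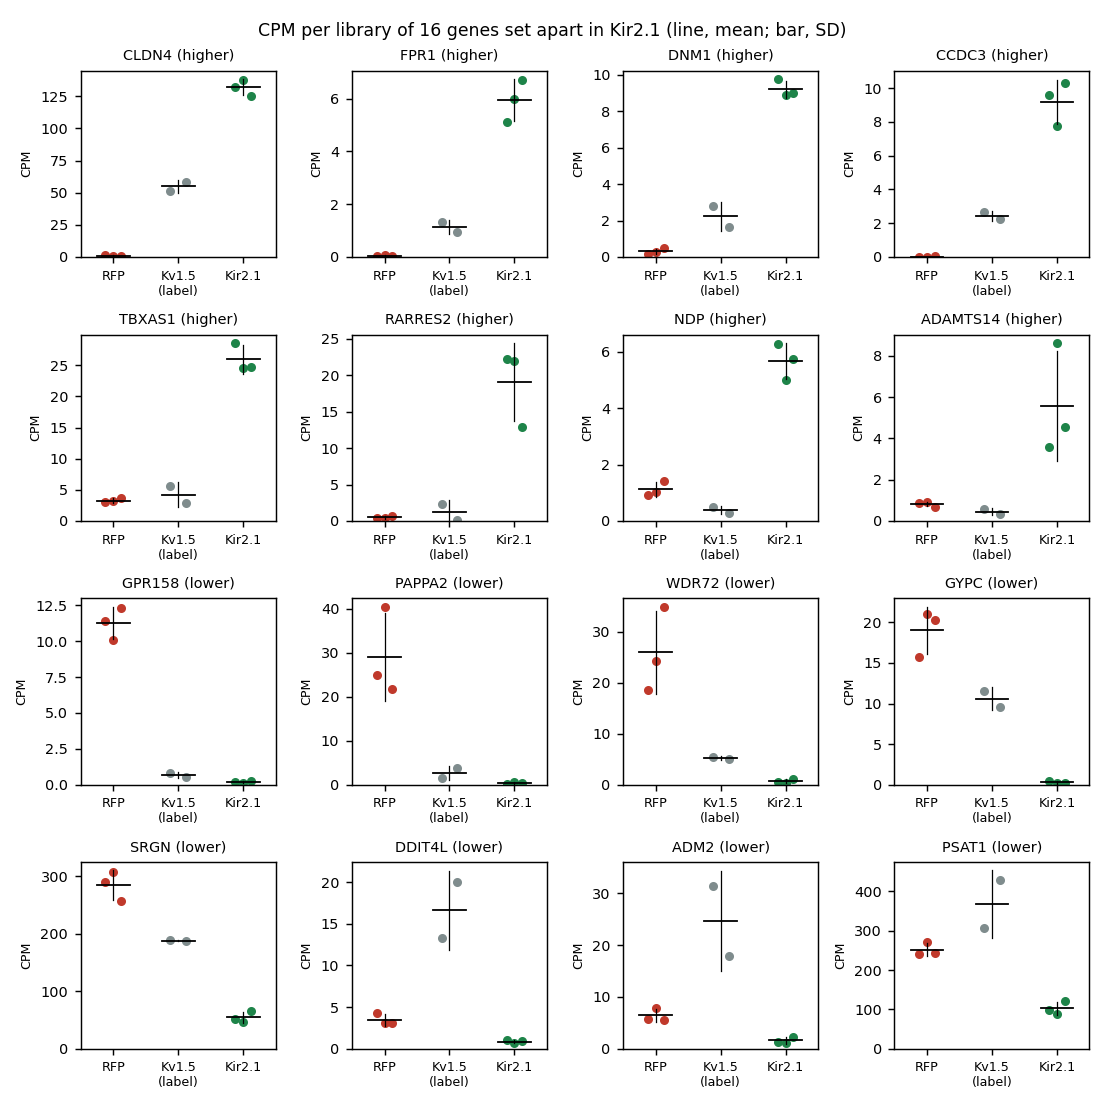
Levels of 16 genes in CPM, on a linear axis from 0 for each gene, with 1 point per library, the group mean as a line and its SD as a bar (groups RFP, Kv1.5 label and Kir2.1). CLDN4, FPR1 and DNM1 show 3 separate levels, whereas DDIT4L, ADM2 and PSAT1 show Kir2.1 below and the Kv1.5 label above RFP.

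Several higher genes encode receptors that signal through G proteins or their partners, while the receptor GPR158 was among the lower genes. Of the list of 83 genes of G protein signalling, 2 of the 59 past the level filter met the rule. Of 70 tested 12 rose and 9 fell in Kir2.1 (median log2 difference -0.01), where 12.2% of all tested genes rose and 8.26% fell. FPR1, the formyl peptide receptor of phagocytes, stood at 0.0468, 0.0800 and 0.0298 CPM in RFP, 5.13, 5.97 and 6.71 CPM in Kir2.1 and 1.32 and 0.962 CPM for the Kv1.5 label. For the Kv1.5 label it rose by a log2 value of 4.41 (SE 0.45, adjusted p = 3.05e-05, edgeR). P2RY6, a receptor for UDP, had 0.0468, 0.32 and 0.239, then 2.45, 2.94 and 2.88, then 0.483 and 0.0493 CPM, with RFP and the Kv1.5 label overlapping. The same overlap held for the opsin OPN3 (12.1, 12.3 and 14.1 CPM in Kir2.1 against 2.01 to 4.42 CPM elsewhere) and the orphan receptor GPR153 (34.6, 42.2 and 44 CPM against 4.61 to 15.4). RAMP1, which joins the receptor CALCRL to form the CGRP receptor, stood at 7.51, 10.5 and 5.76 CPM in RFP, 29.5, 24.5 and 23.9 CPM in Kir2.1 and 11.2 and 4.49 CPM for the Kv1.5 label. CALCRL itself was at 0.234, 0.293 and 0.448 CPM in RFP and 0, 0 and 0.0857 CPM in Kir2.1, or 10, 11 and 15 counts against 0, 0 and 3. Its fall passed the test in Kir2.1 (adjusted p = 0.0194), a call lost without Kir2.1 replicate 1 or 2, and by counts it was 10.8 times higher in RFP (exact 95% interval 3.41 to 54.8). The libraries labelled Kv1.5 held 0 and 1 count, and that fall also passed (adjusted p = 0.0125), other than without Kv1.5 replicate 2. ANXA1, a ligand of FPR1, was abundant at 867 to 1652 CPM in RFP and Kir2.1, and its difference did not pass the test (-0.55, adjusted p = 0.0582), though it did under 5 of 14 alternatives.

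Several secreted ligands were higher. RARRES2, the precursor of the chemoattractant chemerin, stood at 0.374, 0.427 and 0.716 CPM in RFP, 22.3, 22 and 13 CPM in Kir2.1, and 2.34 and 0.0987 CPM for the Kv1.5 label, where its 2 libraries lay on either side of RFP. GDF5, a ligand of the BMP family, was at 0.0468, 0.507 and 0.507, then 4.58, 3.96 and 2.65, then 0.559 and 0.123 CPM. Its receptor BMPR1B was lower in Kir2.1, at 8.51, 6.30 and 5.70 CPM in RFP and 1.10, 1.82 and 1.83 CPM in Kir2.1 (fell by 2.12, SE 0.38, adjusted p = 0.00212). EDN2, the peptide endothelin 2, had 0.281, 0.373 and 0.269 CPM in RFP, 3.2, 3.17 and 1.97 CPM in Kir2.1 and 0.61 and 0.222 CPM for the Kv1.5 label. Both endothelin receptors were detected, and neither passed the test in Kir2.1 against RFP (EDNRA adjusted p = 0.271, EDNRB 0.987). NDP, the norrin ligand of the receptor FZD4, was at 0.936, 1.01 and 1.43 CPM in RFP, 6.26, 4.98 and 5.74 CPM in Kir2.1 and 0.483 and 0.271 CPM for the Kv1.5 label, both below RFP. It was the 1 higher gene that fell for the Kv1.5 label, with a log2 difference of -1.50 (SE 0.39, adjusted p = 0.0108, edgeR), a call lost without Kv1.5 replicate 3, where it was -1.18. FZD4 was at 10.5, 10.0 and 13.1 CPM in RFP, 19.4, 27.6 and 22.6 in Kir2.1 and 17.0 and 30.3 for the Kv1.5 label, and rose in both (1.05, SE 0.25, adjusted p = 0.0122, and 1.16, SE 0.28, adjusted p = 0.00725). The first call was lost without Kir2.1 replicate 2 or RFP replicate 2, and the second without Kv1.5 replicate 3, where the value was 0.63.

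TNFSF10, the death receptor ligand TRAIL, stood at 0.819, 1.89 and 5.52 CPM in RFP, 28.2, 29.4 and 50.2 CPM in Kir2.1 and 11.6 and 13.3 CPM for the Kv1.5 label. RFP replicate 3 was the highest RFP library, and without it the rise for the Kv1.5 label went from 2.29 (SE 0.58, adjusted p = 0.0134) to 3.26. The call was lost without RFP replicate 2, and also without Kv1.5 replicate 2 or 3. The receptors TNFRSF10A and TNFRSF10B did not pass the test in Kir2.1 (adjusted p = 0.946 and 0.73) and rose for the Kv1.5 label by 1.78 (SE 0.23, adjusted p = 0.000129) and 0.91 (SE 0.22, adjusted p = 0.00794). In all, 23 textbook partners of the higher and lower genes were looked up, chosen after the genes were known. Of the 21 tested, 1 rose and 5 fell in Kir2.1 (28.6% called), where 20.5% of all tested genes were called, 12.2% higher and 8.26% lower. For the Kv1.5 label 6 rose and 3 fell (42.9% called), where 33.7% of all tested genes were called, 18.1% higher and 15.6% lower.

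Matrix proteins and cell-surface or secreted proteases formed a group of 6 higher genes, with the secreted protein CCDC3. COL6A3, a chain of collagen VI, stood at 4.26, 4.78 and 4.68 CPM in RFP, 24.4, 15.4 and 38.9 CPM in Kir2.1 and 6.68 and 5.77 CPM for the Kv1.5 label, with the 3 groups apart. Of the other chains of that collagen, COL6A1 was at 161, 433 and 735 CPM in RFP and 180.0, 183 and 160 CPM in Kir2.1 (log2 difference -1.33, adjusted p = 0.0579, past the test under 3 of 14 alternatives), and COL6A2 fell by 0.89 (SE 0.20, adjusted p = 0.00908). ADAMTS15, a protease of matrix proteoglycans, was at 7.27, 20.3 and 26 CPM in RFP, 87.5, 95.7 and 74.1 CPM in Kir2.1 and 36.7 and 21.9 CPM for the Kv1.5 label. ADAMTS14, a procollagen protease, was at 0.865, 0.907 and 0.686, then 3.58, 8.61 and 4.57, then 0.559 and 0.345 CPM, and here the libraries labelled Kv1.5 lay below RFP without passing the test (log2 difference -0.80, SE 0.46). The metalloprotease ADAM28, the carboxypeptidase CPM (a gene symbol here) and the fibulin FBLN7 had levels of 2.08 to 3.47, 9.58 to 9.91 and 2.34 to 2.57 in Kir2.1, in the unit used above. CCDC3 had 0, 0 and 1 count in RFP, 9.56, 7.73 and 10.3 CPM in Kir2.1 and 2.64 and 2.22 CPM for the Kv1.5 label. By its counts it was 1042 times higher in Kir2.1 than in RFP (exact 95% interval 187 to 41190) and 276 times higher for the Kv1.5 label (49.0 to 10970), with the latter past the test (adjusted p = 2.71e-06, edgeR). The list of 65 proteases and inhibitors that holds both ADAMTS genes had 54 tested, of which 26 rose and 7 fell in Kir2.1 (median log2 difference 0.79), where 12.2% of all tested genes rose and 8.26% fell. For the Kv1.5 label 27 rose and 11 fell (0.88), where 18.1% and 15.6% did, and both comparisons share the RFP libraries. The list of 62 collagens and matrix glycoproteins that holds COL6A3 went both ways: of 52 tested, 14 rose and 15 fell in Kir2.1 (median -0.14), and 9 rose and 19 fell for the Kv1.5 label (-0.38).

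Other higher genes encode signalling proteins and proteins known from neurons. Of the list of 71 genes of axon guidance and neurons, 1 (PLXNA4) of the 34 past the level filter met the rule, and of 44 tested 8 rose and 12 fell in Kir2.1 (median log2 difference 0.08). DNM1, the dynamin of synaptic vesicle recovery, stood at 0.164, 0.267 and 0.477 CPM in RFP, 9.75, 8.89 and 8.99 CPM in Kir2.1 and 2.79 and 1.65 CPM for the Kv1.5 label, 3 levels without overlap (log2 rise for the Kv1.5 label 2.96, SE 0.40, adjusted p = 0.000193). RASD2, a small GTPase of the Ras family, had 0.0936, 0.24 and 0.328 CPM in RFP, 3.39, 3.22 and 2.23 CPM in Kir2.1 and 0.229 and 0.0987 CPM for the Kv1.5 label, the last inside the RFP range. SHC3, a neuronal adaptor of receptor tyrosine kinases, was at 12.2, 16 and 12.1 CPM, then 43.9, 70.8 and 51.9 CPM, then 14.8 and 19.3 CPM. DPYSL3, a collapsin response mediator, and TSPOAP1, a presynaptic scaffold protein, rose for the Kv1.5 label by 1.20 (SE 0.34, adjusted p = 0.0178) and 1.38 (SE 0.38, adjusted p = 0.0152). PLXNA4, a semaphorin receptor, was at 0.561, 1.52 and 1.52 CPM in RFP, 3.49, 4.27 and 5.42 CPM in Kir2.1 and 0.635 and 0.197 CPM for the Kv1.5 label, and its difference there was -1.45 (SE 0.54, adjusted p = 0.0563). MDGA1, a neuronal adhesion protein held by a lipid anchor, had 10.8, 14.6 and 10.1 CPM in Kir2.1 against 1.41 to 4.80 CPM elsewhere. APCDD1L, a relative of the WNT inhibitor APCDD1, stood at 11.4, 5.42 and 2.39 CPM in RFP, 68.1, 64.7 and 60.1 CPM in Kir2.1 and 18.6 and 11.9 CPM for the Kv1.5 label, with RFP spread more widely than Kir2.1. The calls of DPYSL3 and TSPOAP1 were lost under 4 and 1 of 15 alternatives, DPYSL3 without Kv1.5 replicate 2, RFP replicate 2 or RFP replicate 3.

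Of the ubiquitin ligases and their adaptors, RNF144A was at 0.0468, 0.133 and 0 CPM in RFP, 2.45, 5.15 and 7.28 CPM in Kir2.1 and 0.152 and 0.296 CPM for the Kv1.5 label. The distance of RNF144A from the other libraries was 8.29 times, and its Kir2.1 libraries themselves spread widely. KLHL3, the adaptor through which cullin 3 marks WNK kinases, regulators of ion transport, was at 0.328, 0.48 and 0.656, then 1.94, 2.53 and 1.91, then 0.457 and 0.444 CPM. PELI3, a ligase of the Toll-like receptor pathway, had 7.84, 7.71 and 7.79 CPM in RFP, 19.1, 18.7 and 17 CPM in Kir2.1 and 6.45 and 5.33 CPM for the Kv1.5 label, which lay below RFP without passing the test. Proteins of mitochondria and metabolism were BOLA1, which serves iron-sulfur clusters (4.17, 3.96 and 4.71 CPM in Kir2.1 against 0.234 to 0.610 elsewhere), the hydrolase NUDT8 (5.65, 4.71 and 4.25 against 1.31 to 2.08), the transporter FLVCR2 (4.81, 5.59 and 4.48 against 1.61 to 2.24), ABHD15 (28.7, 29.2 and 28 against 7.90 to 13.7) and CASTOR2, a homologue of the arginine sensor of mTORC1 (11.5, 9.36 and 6.88 against 2.36 to 2.72). SLFN13, a nuclease of tRNA, rose for the Kv1.5 label by 0.94 (SE 0.30, adjusted p = 0.0309), and SPANXC, a cancer-testis antigen, by 1.86 (SE 0.37, adjusted p = 0.00241). The call of SLFN13 was lost under 6 of 15 alternatives, among them the leaving out of Kv1.5 replicate 2. SPANXC stood at 2.13, 1.01 and 0.895 CPM in RFP, 14.8, 10.4 and 13 CPM in Kir2.1 and 4.57 and 4.91 CPM for the Kv1.5 label. FAM50B, an imprinted gene, and CCDC74A, a coiled-coil protein, had 4.2, 3.96 and 4.4 and 2.42, 1.6 and 2.37 CPM in Kir2.1. SPANXC, CASTOR2 and CCDC74A have near-identical copies elsewhere in the genome, so that reads could be split between copies and their values are uncertain.

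The gene with the largest distance among the higher ones was LINC03040, called C6orf223 and protein-coding in GENCODE 29 but given a noncoding symbol since (chromosome 6, 44000580 to 44005958). It stood at 0.0234, 0.0267 and 0.209 CPM in RFP, 5.17, 13.9 and 34.7 CPM in Kir2.1 and 0.534 and 0.345 CPM for the Kv1.5 label. Its lowest Kir2.1 library was 9.68 times above its highest other library, although the Kir2.1 libraries spread over a coefficient of variation of 84.5%, against a median of 16.5% over the higher genes.

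Membrane proteins come first among the lower genes. GYPC, glycophorin C, which ties the membrane to the cytoskeleton in red cells, stood at 15.7, 21 and 20.2 CPM in RFP, 0.452, 0.193 and 0.228 CPM in Kir2.1 and 11.6 and 9.62 CPM for the Kv1.5 label. With its lowest other library 21.3 times its highest Kir2.1 library, it was set apart most widely of all 77 genes. The libraries labelled Kv1.5 lay below RFP (log2 difference -0.77, SE 0.28) without passing the test (adjusted p = 0.0542, edgeR). A pair of ion channel genes was here. ANO2, a chloride channel opened by calcium, was at 6.67, 4.67 and 2.3 CPM in RFP, 0, 0.0275 and 0.0857 CPM in Kir2.1 (0, 1 and 3 counts) and 1.42 and 0.444 CPM for the Kv1.5 label. CACNA2D4, an auxiliary subunit of voltage-gated calcium channels, was at 5.08, 13.4 and 16.2 CPM in RFP, 0.775, 0.771 and 0.685 CPM in Kir2.1 and 4.93 and 3.85 CPM for the Kv1.5 label. Both also fell for the Kv1.5 label, ANO2 with a log2 difference of -2.24 (SE 0.60, adjusted p = 0.0132) and CACNA2D4 of -1.32 (SE 0.40, adjusted p = 0.0248). Without Kv1.5 replicate 2 the value for ANO2 was -3.25, and without replicate 3 it was -1.66 and lost its call. CACNA2D4 lost its call under 6 of 15 alternatives, among them the leaving out of either Kv1.5 library, RFP replicate 2 or RFP replicate 3. No gene of the lists of potassium channels (9 past the level filter) and of other channels, pumps and exchangers (31) met the rule. These lists hold neither ANO2 nor CACNA2D4, and the transgene KCNJ2 was set aside by the rule, so channel genes were not absent from the set.

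GPR158, a receptor of the class C family, stood at 11.4, 10.1 and 12.3 CPM in RFP, 0.194, 0.138 and 0.228 CPM in Kir2.1 and 0.813 and 0.518 CPM for the Kv1.5 label. Its fall for the Kv1.5 label, a log2 difference of -4.01 (SE 0.35, adjusted p = 8.62e-06), was the largest among the lower genes. SLC16A1, the monocarboxylate transporter that moves lactate, was at 3.79, 4.37 and 3.91 CPM in RFP, 0.42, 0.44 and 0.657 CPM in Kir2.1 and 8.18 and 2.98 CPM for the Kv1.5 label, which straddled RFP. BSG, the chaperone it needs to reach the membrane, was at 816, 913 and 946 CPM in RFP and 810.1, 682 and 658 CPM in Kir2.1, a difference that did not pass the test (adjusted p = 0.215). IL6R, the interleukin 6 receptor, was at 16.7, 9.95 and 6.62 CPM in RFP, 1.26, 2.23 and 1.28 CPM in Kir2.1 and 4.78 and 10.4 CPM for the Kv1.5 label. Its signalling partner IL6ST was at 206, 233 and 351 CPM in RFP and 136, 356 and 295 CPM in Kir2.1 (adjusted p = 0.989). The transmembrane protein TMEM98 and the immunoglobulin family member IGSF3 fell for the Kv1.5 label, with log2 differences of -2.36 (SE 0.36, adjusted p = 0.000465) and -1.07 (SE 0.27, adjusted p = 0.00915). LY6K, a surface protein held by a lipid anchor, fell by 0.67 for that label (SE 0.23, adjusted p = 0.0421), a call lost under 10 of 15 alternatives.

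Secreted and matrix-making genes followed. SRGN, serglycin, the core protein of proteoglycans in secretory granules, was the lower gene most abundant in RFP by its mean. It stood at 289.8, 308 and 257 CPM in RFP, 51.8, 47 and 65.6 CPM in Kir2.1 and 188 and 187 CPM for the Kv1.5 label. In Kir2.1 and for the Kv1.5 label PSAT1, described below, was more abundant. The 3 groups did not overlap, and the difference for the Kv1.5 label did not pass the test (-0.53, SE 0.20, adjusted p = 0.0604). HAS2, hyaluronan synthase, was at 37, 23.3 and 40.6 CPM in RFP, 4.55, 5.17 and 9.37 CPM in Kir2.1 and 27.1 and 54.7 CPM for the Kv1.5 label, which overlapped RFP. CD44, the hyaluronan receptor, did not pass the test in either comparison (adjusted p = 0.428 in Kir2.1 and 0.876 for the Kv1.5 label). PAPPA2, a protease of insulin-like growth factor binding proteins, stood at 24.9, 40.3 and 21.8 CPM in RFP, 0.129, 0.523 and 0.428 CPM in Kir2.1 and 1.6 and 3.87 CPM for the Kv1.5 label. For the Kv1.5 label the log2 difference was -3.32 (SE 0.49, adjusted p = 0.000387), and -4.15 without Kv1.5 replicate 3. IGFBP5, a substrate of PAPPA2, was at no more than 0.0646 CPM in any library. KISS1, the precursor of kisspeptin, known as a metastasis suppressor, was at 36.9, 29.7 and 9.61 CPM in RFP, 4.33, 2.12 and 4.05 CPM in Kir2.1 and 19.3 and 15.1 CPM for the Kv1.5 label. Its receptor gene KISS1R was at no more than 0.0286 CPM in any library. METRNL, a secreted relative of meteorin, had 22.7, 29.8 and 54.2 CPM in RFP, 5.55, 4.82 and 4.2 CPM in Kir2.1 and 19.1 and 22.9 CPM for the Kv1.5 label. DMKN, a secreted protein of epidermis, fell by 1.46 for the Kv1.5 label (SE 0.43, adjusted p = 0.0204), reached -2.39 without Kv1.5 replicate 3, and lost its call without Kv1.5 replicate 2 or RFP replicate 2. The oviductal glycoprotein OVGP1 had 0.517, 0.606 and 0.685 CPM in Kir2.1 against 1.96 to 2.99 elsewhere.

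For 3 lower genes the libraries labelled Kv1.5 moved the other way and passed the test. DDIT4L, an inhibitor of mTORC1 signalling induced by stress, stood at 4.3, 3.04 and 3.07 CPM in RFP, 1.00, 0.688 and 0.885 CPM in Kir2.1 and 13.3 and 20.0 CPM for the Kv1.5 label, a rise of 2.33 (SE 0.31, adjusted p = 0.000162, edgeR). ADM2, the peptide hormone intermedin, was at 5.8, 7.84 and 5.61 CPM in RFP, 1.36, 1.1 and 2.31 CPM in Kir2.1 and 31.5 and 17.9 CPM for the Kv1.5 label (rise of 2.00, SE 0.33, adjusted p = 0.000737). PSAT1, the aminotransferase of serine synthesis (chromosome 9, 78297143 to 78330093), was at 241, 271 and 243 CPM in RFP, 98.9, 89.1 and 120.3 CPM in Kir2.1 and 307 and 430.2 CPM for the Kv1.5 label (rise of 0.63, SE 0.22, adjusted p = 0.0409). In all 3 the order was Kir2.1, RFP, Kv1.5 label with no overlap between neighbours. The calls for DDIT4L and ADM2 held under all 15 alternatives, while that of PSAT1 was lost under 8, among them the leaving out of Kv1.5 replicate 3 and of each RFP replicate.

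PSAT1 belongs to a list of 40 genes of amino acid synthesis, amino acid transport and targets of ATF4, the transcription factor that cells make when amino acids are short. The list is shown whole because PSAT1 was its only member and sat just inside the threshold. Of its 36 genes tested, 16 fell and 0 rose in Kir2.1 against RFP by edgeR (median log2 difference -0.62), where 8.26% of all tested genes fell and 12.2% rose. The rule chose PSAT1 for its low level in Kir2.1, and of the other 35 genes 15 fell and 0 rose (median -0.54). At an unadjusted p under 0.05, 2 rose and 19 fell, and by adjusted p 1 rose and 16 fell with DESeq2 and 0 rose and 15 fell with limma voom. For the Kv1.5 label against the same RFP libraries, 23 rose and 0 fell by edgeR (median 1.01, and 22 of 35 without PSAT1), where 18.1% of all tested genes rose and 15.6% fell, with 24 and 0 at an unadjusted p under 0.05, 24 and 0 with DESeq2 and 23 and 0 with limma voom. The count of 16 went to 7 without Kir2.1 replicate 2, 9 without Kir2.1 replicate 3 and 8 without RFP replicate 2.

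ATF4 itself was at 353, 432 and 378 CPM in RFP, 181, 141 and 208 CPM in Kir2.1 and 292 and 391.9 CPM for the Kv1.5 label, and fell by 1.14 in Kir2.1 (SE 0.20, adjusted p = 0.00218) without passing the test for the Kv1.5 label (-0.10, adjusted p = 0.755). SHMT2 and MTHFD2, mitochondrial enzymes that take serine carbon into folate, fell in Kir2.1, with log2 differences of -1.20 (SE 0.20, adjusted p = 0.00147) and -0.93 (SE 0.19, adjusted p = 0.00405), and MTHFD2 rose for the Kv1.5 label by 0.83 (SE 0.20, adjusted p = 0.00814). The glutamine transporter SLC38A1, at 559.5, 512 and 593 CPM in RFP and 185, 325 and 298 CPM in Kir2.1, fell by 1.05 (SE 0.24, adjusted p = 0.00989). Other genes of the list rose for the Kv1.5 label and did not pass the test in Kir2.1, a difference not itself tested: CTH, of cysteine synthesis, by 3.91 (SE 0.23, adjusted p = 5.23e-07) against 0.43 (adjusted p = 0.155), and CHAC1, which breaks down glutathione, by 3.23 (SE 0.28, adjusted p = 8.83e-06) against 0.07 (adjusted p = 0.87). PSPH, the next enzyme of serine synthesis after PSAT1, was at 31.4, 35.3 and 27.9 CPM in RFP and 35.1, 33.9 and 38.7 CPM in Kir2.1 (0.18, adjusted p = 0.501). The calls named in this list of genes held under all alternatives run for them, other than that of PSAT1. The plot of the list shows both comparisons gene by gene.

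**Figure D3:**
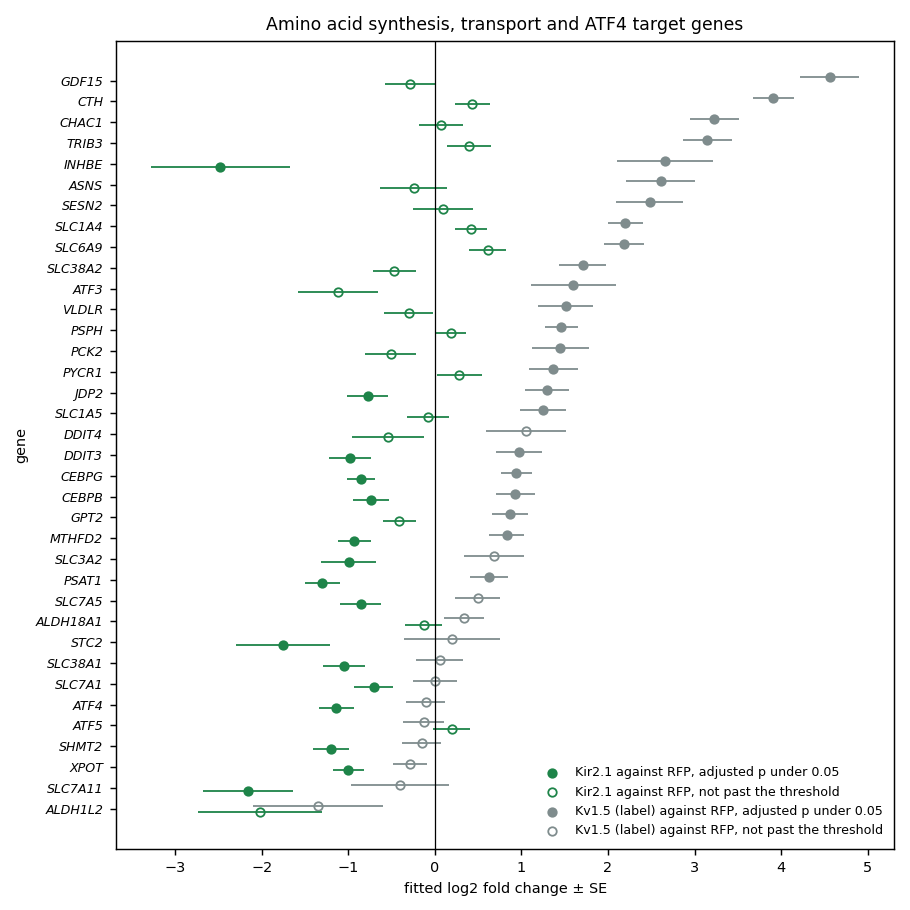
Fitted log2 differences from RFP of the 36 tested genes of amino acid synthesis, amino acid transport and ATF4 targets, in Kir2.1 and in the libraries labelled Kv1.5, with bars of 1 standard error. Filled points passed an adjusted p under 0.05. Most Kir2.1 points lie below 0 and most Kv1.5 points above it, with PSAT1 at -1.30 and 0.63.

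The other lower genes were regulators and cytoskeletal proteins. WDR72, a WD-repeat protein needed for tooth enamel, stood at 18.6, 24.3 and 34.8 CPM in RFP, 0.549, 0.385 and 1.2 CPM in Kir2.1 and 5.51 and 4.96 CPM for the Kv1.5 label. There it fell by 2.23 (SE 0.39, adjusted p = 0.00116). AIF1L, an actin-binding protein, was at 13.3, 18.8 and 21.2 CPM in RFP, 2.00, 1.73 and 1.83 CPM in Kir2.1 and 7.9 and 20.6 CPM for the Kv1.5 label. ARHGEF16, a guanine nucleotide exchange factor, and WIPF3, a partner of WASP proteins in actin assembly, fell for the Kv1.5 label, with log2 differences of -1.09 (SE 0.34, adjusted p = 0.0271) and -1.06 (SE 0.37, adjusted p = 0.0431), calls lost under 5 and 9 of 15 alternatives. The sialyltransferase ST6GALNAC3, the imprinted gene MKRN3 and the Rab-like GTPase RASEF had 0.0646, 0.0826 and 0.143, 0.323, 0.633 and 0.799 and 1.84, 4.32 and 4.08 CPM in Kir2.1. ID4, which blocks basic helix-loop-helix factors, was at 4.58, 3.01 and 3.73 CPM in RFP, 1.13, 0.991 and 1.31 CPM in Kir2.1 and 4.27 and 4.56 CPM for the Kv1.5 label. CARD16, a regulator of caspase 1, the F-box protein FBXL7 and the adaptor PIK3AP1 had both libraries labelled Kv1.5 above RFP, with log2 differences of 0.78 (SE 0.29), 0.41 (SE 0.26) and 0.81 (SE 0.32) that did not pass the test. CARD16 shares sequence with its neighbour CASP1, so its value is uncertain.

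The 4 ties were genes near 0 in both channel groups. CD70, a TNF family ligand, stood at 4.49, 6.46 and 11.5 CPM in RFP and had 0 counts in the other 5 libraries, at least 245-fold lower in Kir2.1 against a floor of 3 counts. LRMDA (1.87, 2.4 and 2.63 CPM in RFP) and the protease inhibitor CSTA (1.78, 2.4 and 2.18 CPM) were at least 77.4-fold and 71.7-fold lower. PADI4, a protein deiminase, was at 0, 0.587 and 7.22 CPM in RFP, so 1 library carried its group mean.

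Replicates varied unevenly over the higher genes. The ratio of the highest to the lowest library had a median of 1.77 in RFP, 1.33 in Kir2.1 and 1.56 for the Kv1.5 label, and exceeded 2 for 18, 4 and 12 of 47 genes. The rule used the lowest Kir2.1 library and the highest other library, so these spreads are not free of the selection. The median coefficient of variation over the higher genes was 29.5% in RFP and 16.5% in Kir2.1. Over all genes past the level filter it was 15.3% and 13.6%. RFP replicate 1 was the lowest RFP library for 31 of the 47, and Kv1.5 replicate 2 the higher of its pair for 36. How often these orders held over all genes was not counted, so they cannot be read as particular to the higher genes. For the lower genes the medians of the ratio of highest to lowest library were 1.48 in RFP, 1.46 in Kir2.1 and 1.39 for the Kv1.5 label. Leaving out Kv1.5 replicate 2 raised the number of higher genes from 47 to 121 and of lower genes from 30 to 49, so this library held many genes out of the set. Leaving out each of the 8 libraries in turn gave 49 to 121 higher and 32 to 49 lower genes.

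By position, chromosome 7 held 8 of the 47 higher genes (17.0%, against 4.57% of all genes past the level filter): CLDN4, CASTOR2, PON2, PLXNA4, TBXAS1, LRRC61, ZBED10P and RARRES2. The remaining genes of chromosome 7 had a median difference in log2(mean CPM + 0.5) of 0.15 between Kir2.1 and RFP and of 0.33 between Kir2.1 and the Kv1.5 label. Over all genes past the level filter that are not in the set these medians were -0.002 and 0.082. LRRC61, ZBED10P and RARRES2 lie within 19036 bases. ZBED10P (ZBED6CL in GENCODE 29, 150329789 to 150332721) lies inside LRRC61 (150322639 to 150338150) on the same strand, so reads of the overlap cannot be told apart, and RARRES2 ends 167 bases beyond on the opposite strand. LRRC61, a leucine-rich repeat protein, was at 5.4, 5.33 and 3.31 CPM in RFP, 36.5, 28.6 and 22.7 CPM in Kir2.1 and 6.43 and 7.67 CPM for the Kv1.5 label. ZBED10P was at 2.88, 2.48 and 1.67, then 16, 23.9 and 18.4, then 3.61 and 4.56 CPM, and rose for the Kv1.5 label by 0.86 (SE 0.30, adjusted p = 0.0445), a call lost under 9 of 15 alternatives. Within 2 Mb of this cluster, 22 of 30 other genes were higher in Kir2.1 than in both other groups by their mean. This was so for 30.1% of all genes past the level filter that are not in the set. Over the 47 higher genes the share of such neighbours ran from 0% to 82.4% with a median of 40.0%, above 30.1% around 34 genes and not above it around 13. Genes that lie close together, such as LRRC61, ZBED10P and RARRES2, share neighbours, so some stretches entered this tally more than once. The count was highest in share around P2RY6, at 28 of 34, and was 74 of 96 around PELI3 and 56 of 74 around NUDT8, which share part of that stretch of chromosome 11, and 22 of 28 around CASTOR2. It was 1 of 18 around CPM (the gene), 1 of 8 around TNFSF10, 0 of 3 around NDP, 4 of 13 around COL6A3 and 4 of 12 around RAMP1, which lie 444518 bases apart on chromosome 2. Chromosome 1 held 8 of the 30 lower genes (26.7%, against 10.3%). The remaining genes of chromosome 1 were not shifted towards lower in Kir2.1. Their median differences were 0.093 between Kir2.1 and RFP and 0.035 between Kir2.1 and the Kv1.5 label, against -0.002 and 0.082 over all such genes. Neighbours lower in Kir2.1 than in both other groups were counted likewise, where 24.0% of all genes were lower in this sense. Over the 30 lower genes their share ran from 0% to 72.7% with a median of 30.6%. It was above 24.0% around 21 genes and not above it around 9, GYPC (2 of 14) among the latter. Copy number was not measured here.

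**Figure D4:**
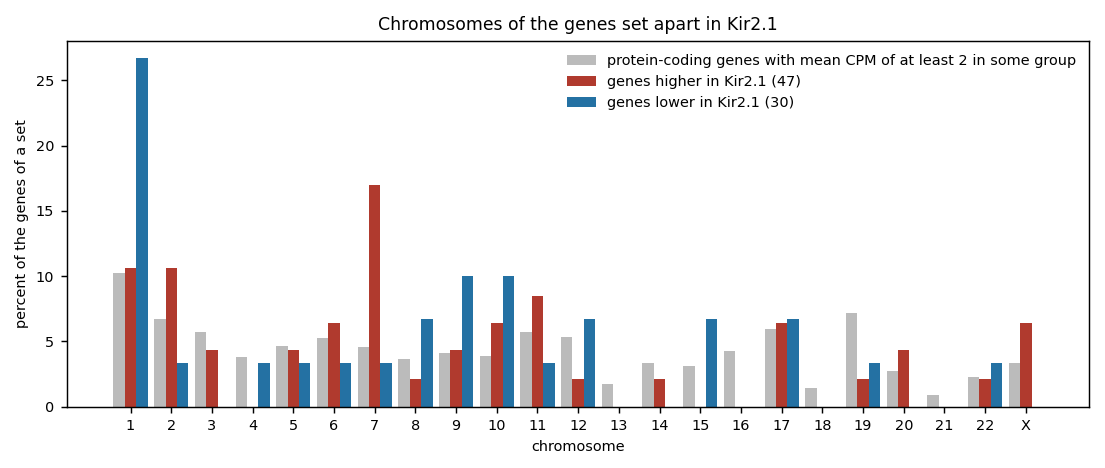
Share of the higher genes, the lower genes and all genes past the level filter on each chromosome, in percent of each set. Chromosome 7 holds 17.0% of the higher genes against 4.57% of all, and chromosome 1 holds 26.7% of the lower genes against 10.3%.

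Promoters of the higher genes held fewer CpG pairs. RefSeq promoters were matched for 33 of 47 higher and 20 of 30 lower genes and for 9546 of all genes past the level filter. The ratio of observed to expected CpG in the 250 bases before the start had a median of 0.557 in the higher genes, 0.775 in the lower genes and 0.83 in all. A ratio under 0.4 was found in 12 higher genes (36.4%), 4 lower genes (20.0%) and 873 of all (9.15%). Promoters poor in CpG are common among tissue-restricted and weakly expressed genes, so the share was also taken by level. At 2 to 10 CPM in the highest group it was 6 of 19 higher genes (31.6%) against 19.6% of all genes, and at 10 to 50 CPM 5 of 12 (41.7%) against 8.52%. For the lower genes it was 1 of 8 (12.5%) and 3 of 11 (27.3%). The highest group of every higher gene is Kir2.1, by which the rule chose it. These steps therefore do not match the higher genes to others by their level in RFP (median 1.13 CPM, against 36.8 in all genes past the level filter). Whether weak expression accounts for the share was not tested. Methylation was not measured.

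The range is shown by 4 promoters, a gene without CpG from the higher side, and from the lower side a gene with 1, a gene with 11 and PSAT1 with 30. FPR1 is at chr19:51751879-51752128 and WDR72 at chr15:53762879-53763128, both on the minus strand, GYPC at chr2:126655908-126656157 and PSAT1 at chr9:78296875-78297124, both on the plus strand. Each is 5′ to 3′ on the gene's strand, from RefSeq on GRCh38.p14, with CpG in capitals, and the FPR1 window, with 225 of the 250 bases of the GYPC window, lies inside the GENCODE 29 gene.
FPR1: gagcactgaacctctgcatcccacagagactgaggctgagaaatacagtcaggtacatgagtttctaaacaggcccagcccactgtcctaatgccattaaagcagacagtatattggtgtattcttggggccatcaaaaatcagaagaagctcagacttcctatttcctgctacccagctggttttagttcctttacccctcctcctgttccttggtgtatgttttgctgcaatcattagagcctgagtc
WDR72: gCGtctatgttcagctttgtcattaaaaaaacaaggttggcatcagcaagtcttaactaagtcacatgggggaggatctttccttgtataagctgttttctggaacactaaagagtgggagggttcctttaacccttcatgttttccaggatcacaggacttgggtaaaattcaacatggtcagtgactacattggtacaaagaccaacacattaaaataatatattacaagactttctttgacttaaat
GYPC: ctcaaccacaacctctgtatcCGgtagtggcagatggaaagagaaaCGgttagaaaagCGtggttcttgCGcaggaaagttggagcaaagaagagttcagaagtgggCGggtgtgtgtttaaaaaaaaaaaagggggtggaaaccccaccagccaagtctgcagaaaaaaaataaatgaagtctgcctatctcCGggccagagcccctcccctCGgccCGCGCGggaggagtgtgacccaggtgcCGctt
PSAT1: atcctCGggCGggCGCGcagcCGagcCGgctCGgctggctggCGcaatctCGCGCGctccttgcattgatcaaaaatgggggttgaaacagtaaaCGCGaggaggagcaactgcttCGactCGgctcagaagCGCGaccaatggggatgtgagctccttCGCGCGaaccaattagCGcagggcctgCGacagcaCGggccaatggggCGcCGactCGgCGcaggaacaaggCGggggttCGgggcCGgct
FPR1 and WDR72, at 0 and 1 CpG, had the levels given above of 5.13, 5.97 and 6.71 CPM and 0.549, 0.385 and 1.2 CPM in Kir2.1. Of 4 other motifs searched on both strands, the ATF4 element TGATGNAA was in 0 promoters of higher or lower genes and 1.36% of all, PSAT1 included among those without it. The cyclic AMP element TGACGTCA was likewise in 0 of both and 3.02% of all. The TATA box TATAAA was in 12.1% of higher, 15% of lower and 5.08% of all promoters, and the NFAT core TGGAAA in 6.06%, 25% and 13.1%.

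**Figure D5:**
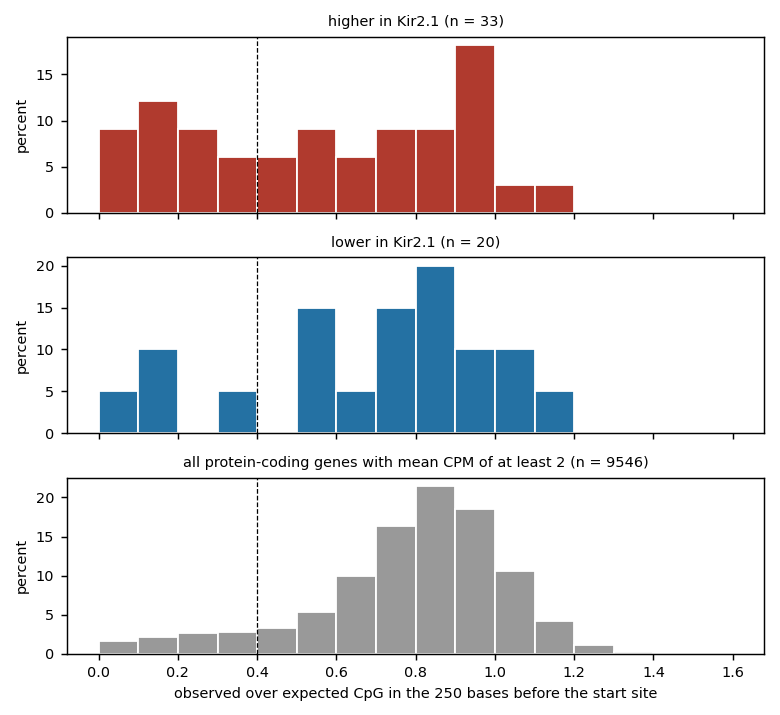
Share of promoters, in percent, by the ratio of observed to expected CpG in the 250 bases before the start site, for 33 higher genes, 20 lower genes and 9546 genes past the level filter. The dashed line marks 0.4, below which lie 36.4%, 20.0% and 9.15% of the promoters.

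Of 20 functional lists, 9 held at least 1 of the 77 genes, and these accounted for 14 genes, at most 3 to a list. None came from the lists of integrins and cadherins (36 past the level filter), interferon response (53), hypoxia and glycolysis (37) or cell cycle (47). The remaining 63 genes are in none of the lists. In the list of cytokines and chemokines, which holds TNFSF10 and IL6R, 14 rose and 8 fell of 56 tested in Kir2.1 (median 0.25), and 31 rose and 5 fell for the Kv1.5 label (1.51). In the interferon list 25 of 56 tested genes rose and 0 fell in Kir2.1 by edgeR (1 at an unadjusted p under 0.05, 0 with DESeq2 and limma voom, median 0.78), where 12.2% of all tested genes rose and 8.26% fell. For the Kv1.5 label, against the same RFP libraries, 23 rose and 3 fell (median 0.70), where 18.1% and 15.6% did.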

How the data were processed

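Poly(A) RNA was analysed in 8 libraries, without replicate 1 of the Kv1.5 label, which is not used here. The deposited table gives unnormalised whole-number counts by the authors for 60715 genes, and FastQC, Trimmomatic, STAR and edgeR with the build GRCh38 are named, without versions, in the submitters' processing notes. No source used here gives the counter or its strand setting, so overlapping and antisense genes cannot be told apart. The authors' deposited comparison tables, whose headers read as those of edgeR, hold p-values, FDR, log2 fold changes with log2 CPM and a ranking score, and were used only to see which genes they list.

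Levels are CPM on the column totals. Biotypes and positions came from GENCODE 29 (58497 IDs matched), symbols from a gene name table (60401 matched) and promoters from RefSeq (GRCh38.p14). All 8 libraries entered 1 fit with edgeR 4.0.16 under R 4.3.3 (low counts removed by filterByExpr, 16687 genes, TMM factors, robust quasi-likelihood F-test, Benjamini-Hochberg adjustment over all tested genes, threshold 0.05). In text, rose, fell and called refer to this threshold, and SE to the standard error of the log2 value. The design had assumed 9 libraries. On simulated counts for Kv1.5 against RFP (16210 to 16268 genes tested, 3 runs, 150 changed genes of each size), 37.3% of genes changed 2-fold, 98.7% at 4-fold and 99.3% at 8-fold were called. The changed genes were drawn from those with a mean above 2 CPM over all libraries, so recovery of genes below that level was not measured. The changed genes were also a far smaller share than the 33.7% called in the data. The adjustment of p depends on that share, so these rates do not carry over to the data.

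Named genes were those set apart most, the most abundant, those in the 20 functional lists, those changed most for the Kv1.5 label and those beside the threshold. Other genes named were picked after their values were seen. A gene that enters the counts is not reported here by name or value. The genes and the lists were chosen with earlier results of these data known. DESeq2 1.42.0, limma voom (limma 3.58.1), other scalings and filters, a replicate block and leaving out each library were alternatives. Intervals and bounds (floor of 3 counts) cover counting error only.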

Additional observations from a re-analysis of the deposited data

Results flagged for a closer look

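For 10 of the 77 genes all Kir2.1 libraries lay on 1 side of RFP and both libraries labelled Kv1.5 on the other. The difference between both effects was not tested, since the rule chose the genes by Kir2.1. Of the higher genes these were ADAMTS14, with a log2 difference of -0.797 for the Kv1.5 label against RFP, NDP (-1.50), PELI3 (-0.335) and FAM50B (-0.437). Only NDP passed edgeR's test for the Kv1.5 label. Of the lower genes these were DDIT4L (2.33), ADM2 (2.00), CARD16 (0.775), FBXL7 (0.405), PIK3AP1 (0.813) and PSAT1 (0.626), and of these DDIT4L, ADM2 and PSAT1 passed the test. Groups of 2 and 3 libraries are too small for a check of single outlying libraries.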

How the results depend on the processing

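The number of higher and lower genes follows the rule. It was 140 and 65 at 1.5-fold, 19 and 13 at 3-fold, 20 and 18 at a mean of at least 10 CPM, 387 and 77 with no minimum CPM, and 394 and 223 without both Kv1.5 libraries (chosen after seeing the data). Leaving out each library gave 49 to 121 higher and 32 to 49 lower genes, the upper values without Kv1.5 replicate 2. Scaling by TMM gave 41 and 29 genes, and by RLE factors 40 and 33.

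For the Kv1.5 label against RFP, 12 higher genes rose (7 at an adjusted p under 0.01, 8 to 14 leaving out each library). The 1 that fell was 2 with DESeq2, 2 with no filter on low counts, 0 with only the Kv1.5 and RFP libraries, 0 at an adjusted p under 0.01 and 0 to 4 leaving out each library. The 3 lower genes that rose were 2 to 5 leaving out each library. The 11 that fell were 7 with only the Kv1.5 and RFP libraries, 5 at an adjusted p under 0.01 and 6 to 11 leaving out each library, with 6 without Kv1.5 replicate 2 or RFP replicate 2. Of 27 called genes 14 kept the call under all 15 alternatives and 0 changed sign.

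The 16 genes of the amino acid list that fell in Kir2.1 were 7 to 16 leaving out each library (0 to 1 rose), and the 23 that rose for the Kv1.5 label 20 to 23. These alternatives, and those of the partner genes, were chosen after seeing the data. The cause of these shifts was not tested, beyond the fewer samples or genes of an alternative.

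With the replicate number as a block, 13 higher genes rose and 2 fell, 2 lower genes rose and 9 fell, and in the amino acid list 1 gene rose and 14 fell in Kir2.1 while 24 rose and 0 fell for the Kv1.5 label. Deviations of same-numbered libraries correlated at 0.181, -0.0938 and 0.157 between RFP and Kir2.1, at 0.0326 and -0.111 between RFP and Kv1.5, and at -0.0123 and 0.0962 between Kir2.1 and Kv1.5. Not every pair was over 0.1, so the numbers were not taken to pair samples. Depth limits genes near 0: 13 of 47 higher and 15 of 30 lower genes had under 100 counts on their low side.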

Other observations

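The same rule was applied to genes that are not protein-coding, as values with no test. Of 942 such genes past the same minimum level, 9 were higher and 4 lower in Kir2.1. MANCR, a long intergenic RNA on chromosome 10, was the most abundant, at 10.4, 12.8 and 9.31 CPM in RFP, 92.4, 77.6 and 95.1 CPM in Kir2.1 and 28.8 and 20.5 CPM for the Kv1.5 label. APCDD1L-DT, transcribed away from the higher gene APCDD1L, was at 1.01, 0.694 and 0.328 CPM in RFP, 9.91, 7.32 and 7.48 CPM in Kir2.1 and 3.61 and 2.27 CPM for the Kv1.5 label. The myosin pseudogene MYH16 on chromosome 7 was at 0.725, 1.01 and 0.686 CPM, then 6.72, 5.72 and 6.28 CPM, then 2.01 and 0.345 CPM. LINC01139 was lower, at 7.32, 10.1 and 10.6 CPM in RFP and 1.52, 2.5 and 3.4 CPM in Kir2.1, with 11.7 and 11.4 CPM for the Kv1.5 label. DUXAP8, a pseudogene transcript, was at 7.98, 6.94 and 6.06 CPM in RFP, 0.743, 0.495 and 0.999 CPM in Kir2.1 and 2.64 and 4.09 CPM for the Kv1.5 label.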
